A study of Esox lucius with 13 samples.

Results

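The transcripts of hemopexin, haptoglobin and AMBP, 3 plasma carrier proteins, were compared in RNA-seq libraries of 13 tissues of a single wild type juvenile male northern pike (Esox lucius). Liver was set against head kidney, stomach, gut, gill, spleen, kidney, heart, brain, testis, nose, muscle and eye, with 1 library each and no treatment. The fish was caught in the wild, and the gut sample was hind gut. The 3 transcripts were chosen by name, with earlier results of these data known. The study annotated 3 of its MAKER2 gene models, which are predicted from the genome, as Hemopexin, Haptoglobin and Protein AMBP, and each was paired with 1 of the 38696 transcripts of the Trinity reference by its fragment numbers in all 13 libraries. None of the 1999 rows at hand of the annotation of the Trinity transcripts has one of these names. A short ranked list by the study of leading liver transcripts of that reference does name hemopexin and haptoglobin, but without identifiers or values, so it could not be tied to a transcript. All 13 libraries came from 1 fish, so the values describe these libraries and no test between tissues was possible.

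Hemopexin binds free haem in plasma, and in teleosts proteins of this family are also known as warm temperature acclimation proteins. Haptoglobin binds haemoglobin that has escaped from red cells. AMBP is a precursor that is cut into alpha-1-microglobulin, a lipocalin that binds haem and radicals, and bikunin, a Kunitz inhibitor that becomes the light chain of inter-alpha-trypsin inhibitor. In mammals all of them are made mainly by hepatocytes and secreted into the blood, and haptoglobin and hemopexin are acute phase proteins.

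Hemopexin and AMBP were paired with near identity. For hemopexin the fragments of the transcript and of the model were equal in 12 libraries and differed by 8 fragments in the remaining one, and the transcript is 1705 bases long against 1702 for the model. For AMBP they were equal in 12 libraries and differed by 1 fragment in the other, with lengths of 1467 and 1457 bases. The haptoglobin pairing is less certain. The transcript is 2446 bases long, against 1136 for the model, and held 1.13 to 1.33 times the fragments of the model in the 8 libraries where the model had at least 20. It was the only transcript whose fragments followed the model this closely. Because part of the haptoglobin transcript lies outside the model, its FPKM, the fragments scaled to transcript length and to the total of the library, may not be that of the gene alone. Its ratios between tissues do not depend on length. The multiple of the model's fragments was highest in liver, however, at 1.33. By the model's fragments, ratios of liver to the others of these 8 libraries would be no larger, and smaller where the multiple was lower. The intervals given here do not cover this. The gene table of the current pike reference from RefSeq lists 1 gene each under the symbols ambp, hp and hpxb, and has no key to the transcripts. The ranked list places hemopexin first and haptoglobin too above the ranks found here, and whether it passes over unnamed transcripts is not stated. A transcript with more fragments may therefore carry either name. The ranks, FPKM, shares, ratios and tissue orders given here for hemopexin and haptoglobin are those of the paired transcripts. They may not be those of the genes, and this holds for the differences between hemopexin and the other carriers too.

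Library totals ranged from 17240414 to 22300517 fragments, and the liver library was the largest. Of 8 models named for hepatocyte markers in the rows at hand, none could be paired with a transcript, so the liver label was not checked. The 3 carriers themselves cannot check it, since they were chosen with earlier results of these data known. Rhodopsin, the light receptor of rods, had 544342 fragments in eye and 0 in liver. The exocrine pancreas marker Trypsin-1, a digestive protease, had 16609 fragments in liver and 18777 in spleen. In bulk tissue fewer cells of a type and less RNA per cell cannot be told apart.

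Hemopexin was read in every library and was far above all others in liver. It had 225108 fragments in liver, 2154 in head kidney, 1128 in brain, 929 in kidney, 730 in stomach, 624 in spleen, 272 in gill, 203 in gut, 201 in heart, 35 in testis, 32 in muscle, 24 in nose and 19 in eye. These give 5920.4 FPKM in liver (95% interval 5896 to 5945), 67.3 in head kidney (64.5 to 70.2) and 38.4 in brain (36.2 to 40.7). Intervals are exact and cover counting error only. The liver value was 88.0 times that of head kidney, the next tissue (84.3 to 91.8), and 154 times that of brain (146 to 164). Outside liver, head kidney exceeded brain by 1.75 times (1.63 to 1.89) and brain exceeded kidney by 1.39 times (1.27 to 1.52), whereas stomach and spleen differed by less than counting error, with a ratio of 1.07 (0.96 to 1.20), as did gut and heart. No neighbours among the 4 lowest libraries, muscle, testis, nose and eye, differed beyond counting error.

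Haptoglobin had 261300 fragments in liver, 714 in head kidney, 645 in stomach, 239 in gut, 193 in gill, 179 in kidney, 169 in heart, 163 in spleen, 7 in nose, 7 in testis, 2 in brain, 1 in muscle and 1 in eye. The libraries outside liver fell into 7 with at least 163 fragments and 5 with at most 7. Its liver FPKM of 4790.4 (95% interval 4772 to 4809) was 308 times that of head kidney (286 to 332) and 359 times that of stomach (333 to 389). Head kidney and stomach, at 15.5 and 13.3 FPKM, differed by 1.17 times (1.05 to 1.30). Gill, kidney, spleen and heart, at 3.63 to 4.14 FPKM, stood next to each other in the order with no neighbours differing beyond counting error. The step from heart to nose was 22.4 times (10.7 to 56.6).

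AMBP had 121384 fragments in liver, 328 in head kidney, 287 in stomach, 146 in gut, 100 in gill, 92 in heart, 57 in kidney, 55 in spleen, 7 in brain, 6 in testis, 3 in nose, 2 in muscle and 1 in eye. It fell into the same 7 and 5 libraries as haptoglobin. Its liver FPKM of 3710.4 (3690 to 3731) was 312 times that of head kidney (279.6 to 348) and 375 times that of stomach (334 to 423). Head kidney and stomach, at 11.9 and 9.89 FPKM, differed by 1.20 times (1.02 to 1.42), spleen and kidney by 1.05 times (0.71 to 1.55), and kidney exceeded brain by 7.11 times (3.23 to 18.5).

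The size of these ratios depended on the library totals. The 100 most abundant transcripts left only 25.7% of the fragments in liver, against 61.9% in head kidney and 25.3% in stomach. With totals counted without them, liver over the next tissue was 212 for hemopexin, and with median-of-ratios size factors it was 507 for hemopexin, 689.7 for haptoglobin and 720.1 for AMBP.

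**Figure D1:**
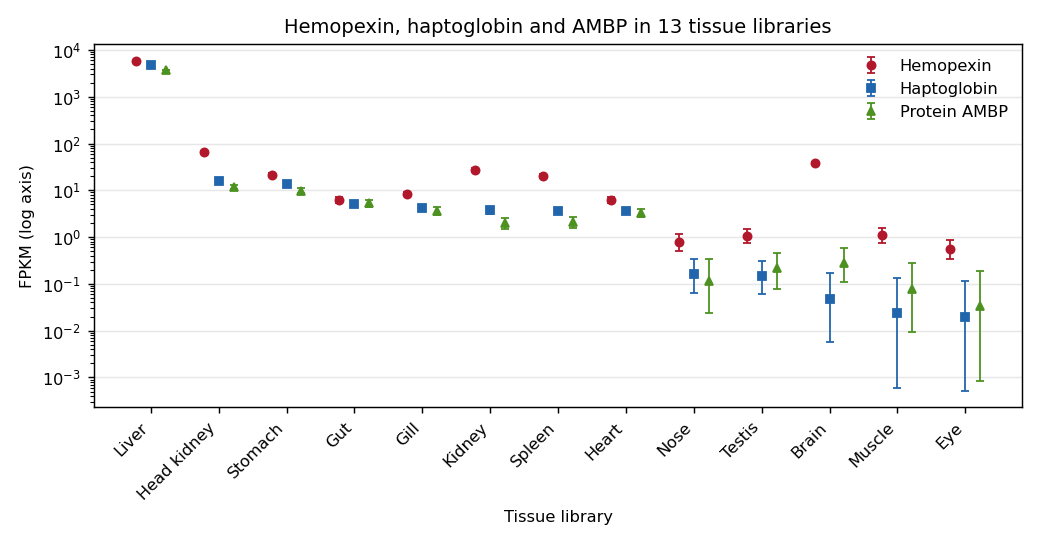
FPKM on a log axis of hemopexin (circles), haptoglobin (squares) and AMBP (triangles) in the 13 tissue libraries, liver first and the others by falling haptoglobin, with exact 95% counting intervals. All lie between 3710.4 and 5920.4 FPKM in liver, and hemopexin alone stays at 38.4 FPKM in brain, where haptoglobin and AMBP had 2 and 7 fragments.

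In liver the 3 transcripts took 2.73% of all fragments (95% interval 2.72 to 2.73), of which haptoglobin made up 1.17%, hemopexin 1.01% and AMBP 0.544%. By FPKM they ranked 12th (hemopexin), 16th (haptoglobin) and 17th (AMBP) of all transcripts in that library. In head kidney, the next tissue of each, hemopexin ranked 703rd, haptoglobin 3542nd and AMBP 4525th. Of the fragments of a transcript over all 13 libraries, liver held 97.3% for hemopexin, 99.1% for haptoglobin and 99.1% for AMBP.

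By the rule of the study, a transcript is specialized where its FPKM lies more than 3 SD above its mean over the tissues. All 3 were specialized in liver, each with a score of 3.33, which is the highest that 13 tissues allow. The carriers were chosen with earlier results known, and haptoglobin could be paired only with a transcript highest in liver. Their calls in liver are therefore descriptions only. On log2(FPKM + 0.1) all 3 scores were below 3, at 2.57 for hemopexin, 2.60 for haptoglobin and 2.71 for AMBP. The same rule called 332 transcripts in liver, 0.858% of those measured, among which the transcript paired with hemopexin was 10th by FPKM, that of haptoglobin 13th and that of AMBP 14th. All 3 were also among the 92 transcripts, 0.238% of all, whose liver value was at least 50 times that of the next tissue. Of the specialized transcripts, 84 had at least 10000 fragments in liver, and the 81 of these other than the 3 carriers are called the other liver transcripts here. They were chosen by their values, and serve as a description. Their median ratio of liver to the next tissue was 95.7, with a 25th percentile of 20.2 and a 75th of 323, and 40 of the 81 lay below hemopexin and 60 below both haptoglobin and AMBP.

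The low values outside liver had a common order in haptoglobin and AMBP from head kidney through stomach and gut to gill. Below these the order of kidney, spleen and heart differed. Among them only heart over spleen for AMBP exceeded counting error between neighbours, at 1.60 times (1.13 to 2.27). As a percent of its own liver FPKM, haptoglobin stood at 0.325% in head kidney, 0.278% in stomach, 0.108% in gut, 0.0864% in gill, 0.0773% in kidney, 0.0766% in spleen and 0.0758% in heart. AMBP stood at 0.321% in head kidney, 0.267% in stomach, 0.142% in gut, 0.0963% in gill, 0.0888% in heart, 0.0556% in spleen and 0.0530% in kidney. In brain, eye, muscle, nose and testis neither was above 0.00746%. A line at 0.04% of liver, drawn after the values were seen, thus separated the same 7 libraries from the same 5 for both proteins, and so did 0.02%. With totals without the 100 most abundant transcripts 4 libraries were above 0.04%, and with size factors 2. Over the 12 tissues other than liver the Pearson r of log2(FPKM + 0.1) between haptoglobin and AMBP was 0.98 and the Spearman rho 0.94. In the 5 lower libraries both transcripts rest on 1 to 7 fragments, and no neighbours there differed beyond counting error. The 12 points are libraries of 1 fish, and both coefficients are a description only.

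Hemopexin departed from that order in several libraries. It stood at 1.14% of its liver FPKM in head kidney, 0.648% in brain, 0.466% in kidney, 0.366% in stomach, 0.340% in spleen, 0.141% in gill, 0.107% in gut and 0.105% in heart, and at 0.00935% to 0.0184% in muscle, testis, nose and eye. In gut it was thus close to haptoglobin and below AMBP. In heart, stomach and gill it was 1.18 to 1.64 times the other carriers. In head kidney, kidney and spleen it was several times higher. The gap was far wider in brain, where haptoglobin stood at 0.00099% and AMBP at 0.00746%, values that rest on 2 and 7 fragments. Over the same 12 tissues its Pearson r was 0.74 with AMBP and 0.69 with haptoglobin, and its Spearman rho was 0.68 with AMBP and 0.62 with haptoglobin.

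**Figure D2:**
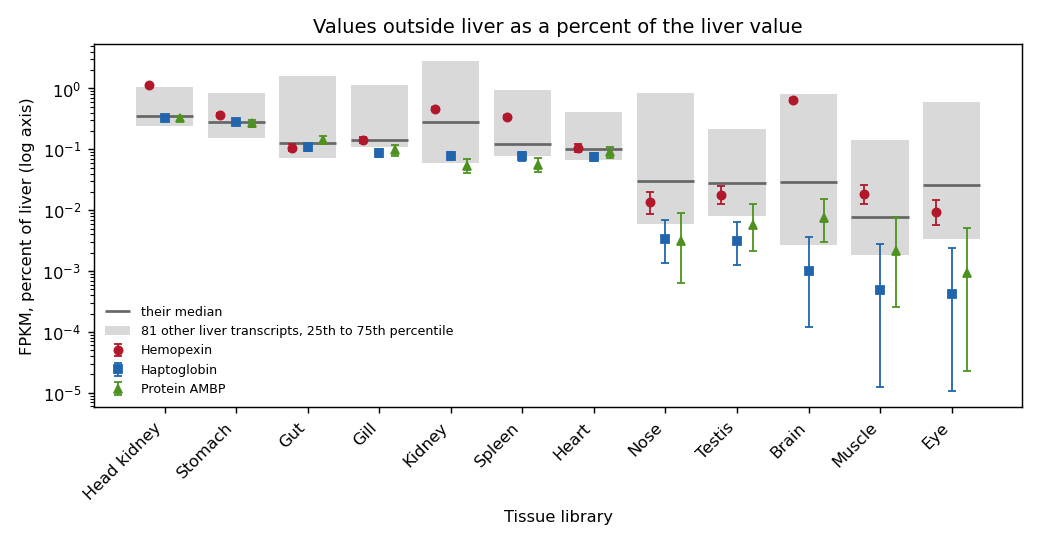
FPKM of each carrier in the 12 other libraries as a percent of its liver FPKM, on a log axis, with exact 95% counting intervals; grey bars span the 25th to 75th percentile of the 81 other liver transcripts and lines give their median. Haptoglobin and AMBP lie at 0.0530% to 0.325% in 7 libraries and at most 0.00746% in 5, while hemopexin reaches 0.648% in brain.

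Ratios of fragments within a library show the same without reference to totals or lengths. In liver there were 2.15 fragments of haptoglobin for each of AMBP (95% interval 2.14 to 2.17). The ratio was 2.18 in head kidney (1.91 to 2.49), 2.25 in stomach (1.95 to 2.59), 1.93 in gill (1.51 to 2.48) and 1.84 in heart (1.42 to 2.39), and these 4 intervals include the liver ratio. It was lower in gut at 1.64 (1.33 to 2.03), and higher in kidney at 3.14 (2.32 to 4.31) and spleen at 2.96 (2.17 to 4.10). Across the 7 libraries it varied by 1.92 times. These are fragments of the paired haptoglobin transcript, and those of its model would give lower ratios, by a factor that varied by library.

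Between hemopexin and AMBP the ratio was 1.85 in liver and varied by 11.7 times across the same 7 libraries. It was 16.3 in kidney (12.5 to 21.7), 11.3 in spleen (8.60 to 15.2) and 6.57 in head kidney (5.84 to 7.40), against 2.72 in gill, 2.54 in stomach, 2.18 in heart and 1.39 in gut, and only the interval in heart included the liver ratio. In brain it reached 161 (78.0 to 402). If hemopexin kept its liver ratio to the sum of haptoglobin and AMBP, head kidney would hold 613 fragments of it, kidney 139, spleen 128 and brain 5.29. The measured numbers were 3.51 times this in head kidney, 6.69 times in kidney, 4.87 times in spleen and 213 times in brain, but 0.896 times in gut, 1.31 times in heart, 1.33 times in stomach and 1.58 times in gill. In eye, muscle, nose and testis the other carriers gave 13 or fewer fragments in sum, and the multiples there rest on too few for comparison.

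**Figure D3:**
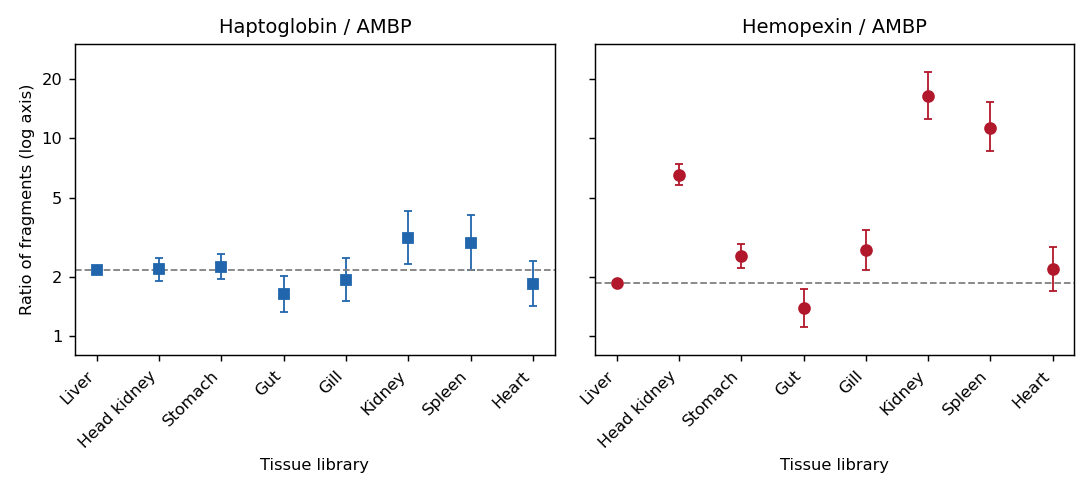
Fragments of haptoglobin (left) and hemopexin (right) per fragment of AMBP, on a log axis, in liver and the 7 libraries where haptoglobin and AMBP reach 0.04% of liver, with exact 95% intervals and the liver ratio dashed. Haptoglobin stays between 1.64 and 3.14, and hemopexin ranges from 1.39 in gut to 16.3 in kidney.

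The lowest values of the other liver transcripts separated the same libraries. All 81 had fragments in each of the 7 libraries, where their 10th percentile was 0.0445% to 0.193% of liver and the lowest of them was 0.0186%. In the other 5 libraries their 10th percentile was at most 0.00371%, and 27 of the 81 had no fragment in at least 1 of these. The 10th percentile was highest in head kidney at 0.193%, followed by stomach at 0.110% and gill at 0.0932%. Higher in their distribution the 7 and 5 libraries overlapped. The 75th percentile was 0.407% in heart, against 0.821% in brain, 0.830% in nose and 0.589% in eye, and the 90th percentile was 4.87% in gill and 4.58% in brain. Haptoglobin and AMBP lay below the median of these transcripts in 13 of the 14 places in the 7 libraries, the exception being AMBP in gut, where 44 of the 81 were lower. In gill 5 of the 81 were lower than haptoglobin and 10 were lower than AMBP. The place of hemopexin among the 81 varied by library. It had 61 of them below it in head kidney, 58 in brain, 52 in stomach, 51 in spleen, 47 in muscle, 45 in kidney, 43 in heart, 40 in gill, 34 in testis, 32 in gut, 31 in eye and 31 in nose. In gut haptoglobin too had 32 below it.

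Transcripts that stand out in other tissues were also read outside them, in sets of libraries that in part held those of liver. With the same rule of 3 SD and 10000 fragments, the 10th percentile reached 0.04% of the highest library in 7 of 12 libraries for liver. It did so in 12 libraries for the 36 transcripts of spleen and 10 for the 15 of head kidney. For the 20 of nose it did so in 7, the number for liver. The set of head kidney held each of the 7 libraries of liver apart from head kidney itself. The set of spleen held each of them apart from spleen itself. It did so in 3 each for kidney, muscle and testis, 2 each for brain and stomach, 1 each for eye and gill, and 0 for gut and heart. Several libraries were pooled in each sequencing lane, along with samples of other projects. The labels do not say which libraries shared a lane. The part of this pooling in the low values was not tested.

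**Figure D4:**
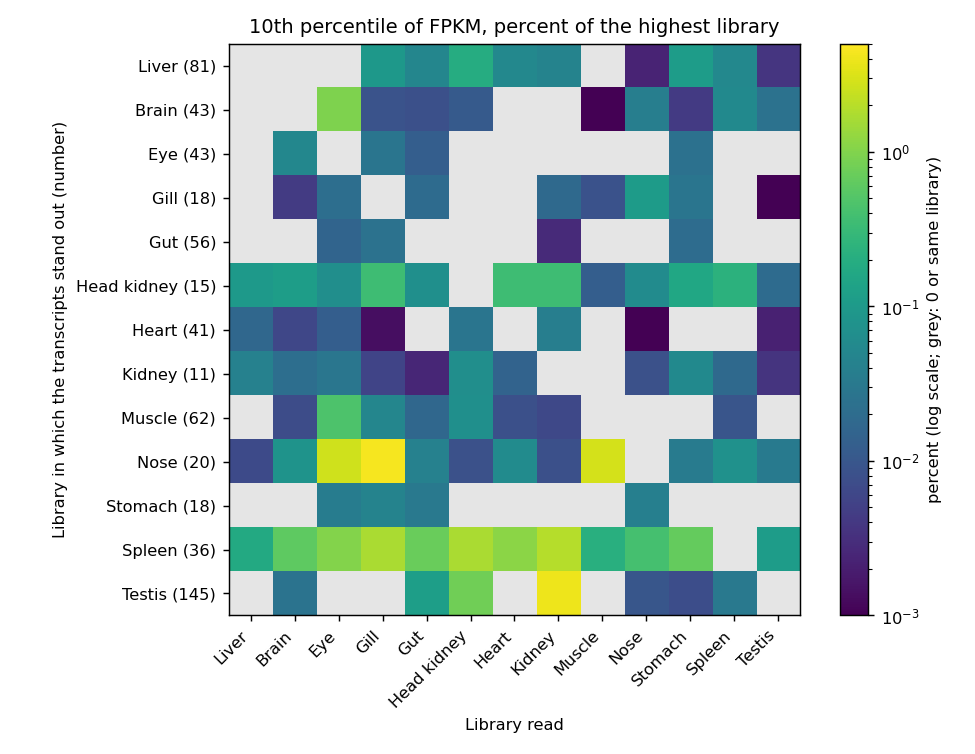
For transcripts past 3 SD with at least 10000 fragments in the library of each row (their number in brackets), the 10th percentile of FPKM in each column as a percent of the row library, on a log colour scale, with grey for 0 or the same library. The liver row, without the 3 carriers, is at 0.0445% to 0.193% in 7 libraries and at most 0.00371% in the other 5.

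Few markers of blood and pancreas could be set beside the carriers. The transcript paired with Hemoglobin subunit alpha-4, a red cell marker, had 1298 FPKM in liver. It had 41031 in kidney, 25701 in head kidney, 22313 in heart, 20856 in gill, 15261 in eye and 11160 in spleen. Lower values were 2622 in gut, 2437 in brain, 656 in nose, 632 in muscle, 423 in stomach and 245 in testis. Its Spearman rho over the 12 tissues other than liver was 0.31 with AMBP and 0.38 with hemopexin. Outside liver, kidney, head kidney, heart and gill were highest in this marker, and testis, stomach, muscle and nose lowest. Of 4 haemoglobin models in the erythrocyte list this was the only one paired. Trypsin-1 had 831 FPKM in liver, 1154 in spleen, 229 in head kidney, 32.7 in stomach, 26.1 in gut, 6.38 in kidney and 3.52 in heart, and no fragment in gill. Its rho with AMBP was 0.64 and that of Anionic trypsin-1, the other of the 2 trypsin models paired out of 4, was 0.69, close to the rho of 0.68 between hemopexin and AMBP. Ig kappa chain V-III region MOPC 63 is a B cell marker and the only one paired of 13 models. It had 316 fragments in head kidney, 57 in kidney, 51 in spleen, 10 in gill, 4 in heart, 2 in gut and 1 in brain. It had 0 in liver, eye, muscle, nose, stomach and testis, and its ranks are tied there. Its rho was 0.69 with hemopexin and 0.59 with AMBP. Trypsin-1 and the Ig chain were paired, like haptoglobin, by a constant ratio to the model. Neither of the 2 macrophage models was paired. The part of red cells, pancreas, B cells or macrophages in the values of the carriers was not tested.

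Among the 15182 transcripts with at least 1000 fragments in all, the 5 most like haptoglobin over the 12 tissues other than liver had a Pearson r of 0.97 to 0.99 on log2(FPKM + 0.1), and AMBP was 2nd of them. The 5 most like AMBP had an r of 0.96 to 0.98, with haptoglobin first. All 5 in both cases were specialized in liver, a call made for 0.858% of all 38696 transcripts. The share among the 15182 that were searched was not calculated and can be higher. The lists overlap and are not separate observations. Each of these carriers is in the list of the other, and unnamed transcripts with 8069.3 and 1659.7 FPKM in liver are in both. For hemopexin the 5 reached only 0.83 to 0.93, and 3 of the 5 were specialized in liver. The other 2 were highest in head kidney, with 2499 and 1079 fragments there and 15 and 8 in liver. Apart from haptoglobin and AMBP themselves none of these transcripts has a name at hand.

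Of 10 models named for other plasma proteins of the liver, including 3 of Complement C3, none could be paired, so the carriers could not be set beside named proteins of their kind. Of 10 models in a list drawn up for haem and haemoglobin handling, 2 were paired, Hemoglobin subunit alpha-4 and Scavenger receptor class F member 2. The latter is a membrane protein of the scavenger receptor family, and whether it handles haem or haemoglobin was not tested. Scavenger receptor class F member 2 had 0.285 FPKM in liver and 16.7 in spleen, its highest library.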

How the data were processed

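Reads were paired-end; the authors quality-trimmed them (Trimmomatic), assembled all tissues with Trinity, mapped each library to the 38696 reference transcripts and deposited a raw count of fragments and an FPKM value per transcript. The sources used here name no aligner for this step. Both were used as deposited. Lengths were calculated from counts, FPKM and totals.

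The 3 carriers, the lists and the rule for named genes (the carriers, every paired model of the lists and the 5 transcripts most like each carrier) were chosen with earlier results of these data known. Names came from the first 1999 rows of each supplementary annotation table, whose values served only for pairing. The first of these rules that left exactly 1 transcript was used: all 13 fragment numbers within 1 fragment or 0.1% and lengths within 20%; within 5 fragments or 2% at any length; or a constant ratio between 0.5 and 2, within 15% of its median in libraries with at least 20 fragments and within 10 fragments in the others. Under the third rule a model highest in liver, such as that of haptoglobin, could be paired only with a transcript highest in liver. Haptoglobin needed the third. That rule alone found the same single transcript for 85 of 90 models paired by the first rule and several for 5, and 2 of 84 liver transcripts had another match under it. Pairs under the first rule also meet the third, so these numbers count ambiguous matches only. They do not test whether a pair found by the third rule alone, like that of haptoglobin, is right. Haemoglobin was paired by length (within 2%) and an r of at least 0.97, a rule added after seeing the data. It gave the same transcript in 69 of 69 cases that could be compared. In those cases the first rule had already found near equal fragment numbers, so the result was close to given. They do not test the pairing of haemoglobin, which no earlier rule tied to 1 transcript.

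There were no replicates and no tests. Intervals are exact at 95%, from Poisson counts or from the conditional binomial distribution of a pair of counts. The SD has n - 1 in its denominator. Calculations were tested on simulated data. Alternatives covered the scale, library totals, thinning, the comparison transcripts and the pairing. Figures were drawn with matplotlib 3.10.9 and calculations made with scipy 1.17.1, pandas 2.3.3 and numpy 2.4.6 in Python 3.11.15.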

Additional observations from a re-analysis of the deposited data

How the results depend on the processing

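No paired analysis was possible because each tissue had 1 library. The 100 most abundant transcripts took most of the liver library, and the size of every ratio depended on whether they were counted. With totals without them, liver over the next tissue was 212 for hemopexin, 354 for haptoglobin and 369 for AMBP, and with median-of-ratios size factors 507, 689.7 and 720.1. Under both, stomach replaced head kidney as the next tissue of haptoglobin and AMBP. Without the next tissue the ratios were 154, 359 and 375. TPM and thinning to the smallest library kept them within counting error. Without the 100 most abundant other transcripts the carriers made up 9.70% of liver fragments. The score in liver was below 3 on log2(FPKM + 0.1), at 2.57 for hemopexin, 2.60 for haptoglobin and 2.71 for AMBP, and on log2(FPKM + 1) at 2.72 for hemopexin and 2.99 for haptoglobin, where AMBP stayed past it at 3.04. The 7 libraries with haptoglobin and AMBP at 0.04% of liver became 4 without the 100 most abundant and 2 with size factors, and the 7 for the other liver transcripts became 3 and 1, since liver rose relative to most libraries. Stomach was an exception without the 100 most abundant. There liver over stomach was 354 for haptoglobin, against 359 with them, and 369 for AMBP, against 375. They stayed 7 with at least 10 fragments, at 0.02%, with AMBP alone, with 3000 or 30000 liver fragments and with 100 times the next tissue. At exact equality 0 of the 3 models were paired, and at 2% or 5 fragments 2. Depth limits the 5 lowest libraries, where haptoglobin and AMBP had 7 fragments or fewer.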

Other observations

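Rhodopsin, paired like haptoglobin by a constant ratio to its model, was also read at low values outside its own tissue. Against 16459 FPKM in eye it stood at 0.0349% of that value in gill (180 fragments), 0.0265% in stomach (142) and 0.0257% in gut (131), at 13 fragments in brain, and at 0 in head kidney, heart, kidney, liver, muscle, nose, spleen and testis. All 43 transcripts that stand out in eye likewise had fragments in gill, stomach and gut. Gill, stomach and gut were thus among the low-level libraries of both rhodopsin and the liver carriers. Head kidney, heart, kidney and spleen held fragments of the carriers but none of rhodopsin. This was seen after the data were examined and its cause was not tested.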
